A study of Mus musculus with 2 samples.

Results

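The DEAD box and DEAH box helicases are the largest family of RNA helicases, and the binding of Tia1 to the mRNAs that encode them was measured in activated mouse B cells. The members were the protein-coding genes of GENCODE release M21 (mouse build GRCm38) whose symbol starts with Ddx or Dhx followed by a digit, with Ddx6 and the Y-linked copies left out. This gave 51 of 21951 protein-coding genes, 35 with a Ddx and 16 with a Dhx symbol. The rule takes members by symbol alone and uses no measured value, but it was set with earlier results of these data known. All 51 have an annotated 3′UTR, as have 20875 protein-coding genes in all outside the Y and mitochondrial chromosomes.

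Individual-nucleotide crosslinking and immunoprecipitation (iCLIP) joins a protein to its RNA with UV light, and each cDNA that stops at the crosslink marks the bound nucleotide. Both samples came from primary splenic B cells of C57BL/6 mice stimulated in culture with 10 µg/ml lipopolysaccharide (LPS) for 48 h, and crosslinked RNA was recovered from the cytoplasm. They form 1 group of 2 replicates (n = 2). The study calls them independent experiments. At low-FDR sites, the positions that passed the authors' false discovery rate of 0.05, there were 639108 cDNAs (342732 sites) in replicate 1 and 165081 cDNAs (93512 sites) in replicate 2. No unstimulated, isotype or knockout sample was analysed here, so background binding was not measured. Sample titles and the study's methods name Tia1, an RNA-binding protein of stress granules, but the labels give the antibody as one against its relative Tial1. This was not settled, and the name of the titles, Tia1, is used below. No mRNA level was measured with these samples, so stronger binding of an mRNA and more copies of it cannot be told apart.

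RNA helicases of this family use ATP to open short RNA duplexes or to strip proteins from RNA, and they are named after a conserved amino acid motif. Different members drive the rearrangements of the spliceosome, mature ribosomal RNA in the nucleolus, carry mRNA through the nuclear pore, help scanning ribosomes, or sense viral RNA in the cytoplasm. LPS-stimulated B cells grow and divide quickly and depend on splicing and on new ribosomes. The 51 genes were placed by their best known role in 6 classes, splicing (11), ribosome biogenesis (18), antiviral sensing (3), export, translation and mRNA turnover (7), transcription and RNA processing (5), and other or less studied (7). Several helicases have more than 1 role, so the classes are a convenience.

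The sequences at the strongest sites are shown first, and other sites can differ from them. Each is 29 nt of GRCm38 in the sense of the transcript, centred on the nucleotide with most pooled cDNAs in the 3′UTR cluster with most cDNAs, and capitals mark nucleotides called as a low-FDR site in both replicates. Ddx17, Ddx5, Dhx9 and Dhx15 lead the family, Ddx21 and Dhx36 lead their classes, Ddx41 and Ddx39 hold nearly all cDNAs in 1 narrow cluster, and Ddx3x and Dhx58 are shown as members with few or no nucleotides called in both replicates.
Ddx17: UUCAUUUUUAUUUUUUCUUUUCUCaacca
Ddx5: UUCcuGaaacaAUUUUUaggUUUUUUUug
Dhx9: guuuguAUUUUUUUUUCUUGaagggguaa
Dhx15: aagcUUUUUaAUuUUUCUUUacagUaaau
Ddx21: guuggguUuUgUuUUucuuguUUucuUUg
Dhx36: UUuUUUCUuUUUUUUaguUUuuggcaaaa
Ddx41: cucagaauUacUaUUUUugUUcuccuccc
Ddx39: ucucuuUUUauuguUccaaagcuuuagug
Ddx3x: cagcaggcuuuauuuuaaaugccgauuca
Dhx58: guuuuguuuuuguuuuugaggcucuucau

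The windows lie at chr15:79529907-79529935 (Ddx17, minus strand), chr11:106781655-106781683 (Ddx5, minus), chr1:153455833-153455861 (Dhx9, minus), chr5:52150526-52150554 (Dhx15, minus), chr10:62580791-62580819 (Ddx21, minus), chr3:62470483-62470511 (Dhx36, minus), chr13:55530446-55530474 (Ddx41, minus), chr8:83723223-83723251 (Ddx39, plus), chrX:13292531-13292559 (Ddx3x, plus) and chr11:100694908-100694936 (Dhx58, minus), all in annotated 3′UTRs. The same window was taken for the 12 members with at least 50 pooled 3′UTR cDNAs and for the 3 antiviral members. Of these 15 windows, 13 hold the run UUUUU, 0 hold AUUUA, and U makes up between 34.5% (Ddx3x) and 69.0% (Ddx21) of the letters. All 15 occur once in the genome as exact matches on either strand. The Ddx17 window had 24 of its 29 nucleotides called in both replicates, the Ddx5 window 17, and the Ddx3x and Dhx58 windows 0.

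A narrow majority of the helicase mRNAs was bound in their 3′UTR in both experiments, and the paralogues Ddx17 and Ddx5 held most cDNAs, while Dhx9 held most per kb of 3′UTR. A gene was counted as bound when its 3′UTR held at least 1 low-FDR site in each replicate. The study listed its targets of both experiments in this way, but defined targets by higher 3′UTR cDNA counts in some later comparisons. The criterion used here was met by 26 of the 51 members (51.0%), beside 22% of all 20875 genes. Among genes with any pooled 3′UTR cDNA the gap was small, with 26 of 38 members (68.4%) against 63.4% of 7250 genes. Of the 38 members, 12 had 10 or more cDNAs in each replicate (31.6%), beside 34.3% of all genes with a 3′UTR cDNA. A pooled 3′UTR cDNA was found in 38 of 51 members (74.5%), beside 34.7% of all genes. No test was made of these shares, since 2 samples of 1 group allow none over samples.

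**Figure D1:**
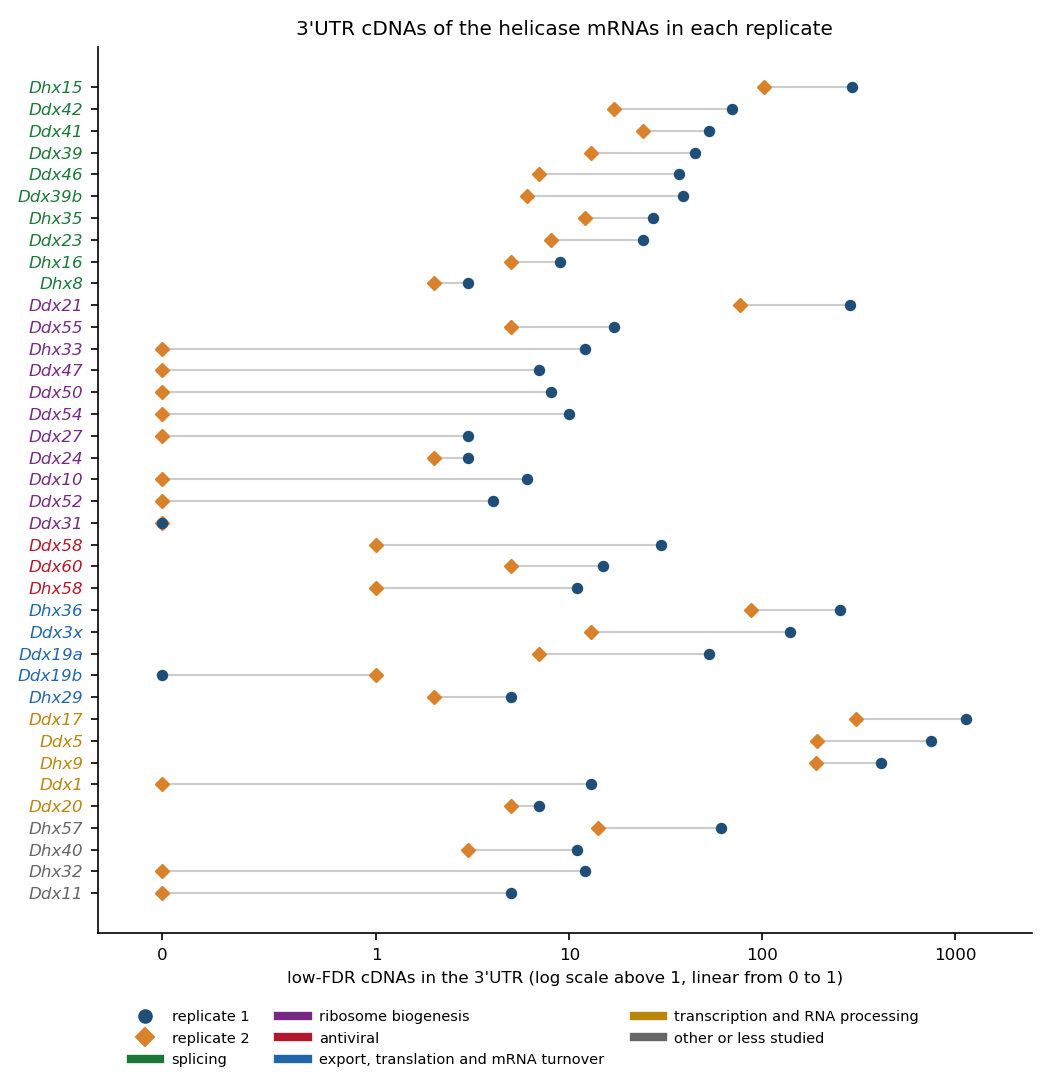
Low-FDR cDNAs in the 3′UTR of the 38 helicase mRNAs with at least 1 pooled 3′UTR cDNA, in replicate 1 (blue circles) and replicate 2 (orange diamonds). The axis is logarithmic above 1 and linear from 0 to 1. Names are coloured by class, and within each class genes are ordered by pooled cDNAs. Of the 11 ribosome biogenesis helicases shown, 8 sit at 0 in replicate 2, while the 10 splicing helicases shown have cDNAs in both.

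Pooled counts below come from sites called on the sum of both experiments, and can exceed the sum of the counts of the replicates, each of which has its own list of called sites. The 51 members held 5241 pooled 3′UTR cDNAs, with 3865 in replicate 1 and 1108 in replicate 2. Ddx17 alone held 28.6% of the pooled number, Ddx17 with Ddx5 47.4%, and these with Dhx9 58.8%. The median over the 38 members with any was 22.5 cDNAs, beside 28 for all genes with any. Per length, the median was 32.8 cDNAs per kb of 3′UTR, 1.45 times the 22.6 of all genes. Without Ddx17, Ddx5 and Dhx9 it was 28.6 per kb.

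Ddx17 and Ddx5 encode closely related DEAD box proteins (p72 and p68) that act in transcription, splicing and the processing of primary microRNAs. The 3′UTR of Ddx17 held 1499 pooled cDNAs, with 1133 in replicate 1 and 307 in replicate 2, which ranked it 26 of the 7250 genes with a 3′UTR cDNA. Ddx5 held 985 cDNAs, with 751 in replicate 1 and 193 in replicate 2, and ranked 73. Per kb of 3′UTR the order of the pair was the reverse, with 659 cDNAs in Ddx5 and 292 in Ddx17. By pooled count Ddx17 was above 99.6% of the genes and Ddx5 above 99.0%, and by pooled density 93.9% and 98.4%.

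Binding to Ddx17 was concentrated in the 3′UTR of its long isoforms. The cluster at chr15:79529708-79529961 (minus strand) held 868 of the 1499 cDNAs (57.9%), with 637 in replicate 1 and 226 in replicate 2, and its highest nucleotide, at 79529921, held 35 and 12. Ddx17 also has an isoform that ends within the gene, and the 3′UTR of that isoform held a cluster at chr15:79535881-79535939 with 86 cDNAs in replicate 1 and 42 in replicate 2. That stretch belongs to 1 of the 4 annotated coding isoforms with a 3′UTR, and the leading cluster to 2 of them. When only the longest coding transcript was used, Ddx17 kept 1201 cDNAs.

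In Ddx5 the leading cluster, chr11:106781655-106781714 (minus strand), lay 136 to 195 nt into a 3′UTR of 1495 nt. In replicate 1 it held 271 of 751 cDNAs (36.1%), and in replicate 2 it held 129 of 193 (66.8%). A further cluster near the end of the 3′UTR, chr11:106780392-106780573, held 163 cDNAs (21.7%) and 37 (19.2%). Both replicates thus gave the same leading stretch, although its share of the cDNAs differed. Ddx5 also had 70 pooled cDNAs in exons of its non-coding isoforms, outside the coding transcript. Its clusters there at chr11:106782877-106782906 and chr11:106783932-106783956 held 11 and 7 cDNAs in replicate 1 and 8 and 11 in replicate 2.

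Dhx9 encodes RNA helicase A, a DEAH box enzyme of transcription and RNA processing. Its 3′UTR of 311 nt held 600 cDNAs, 411 in replicate 1 and 189 in replicate 2, or 1929 per kb. By density it ranked 23 of the 7250 genes. All 600 fell in a single stretch of joined sites, chr1:153455788-153456016 (minus strand), which spans 53 to 281 nt of the 311 and holds 114 called nucleotides. The last 100 nt held 54.8% of them. Ddx20, a partner of the SMN complex in the assembly of spliceosomal particles, held 12 cDNAs, 7 in replicate 1 and 5 in replicate 2. Ddx1, a helicase of RNA ligation and repair, held 13 in replicate 1 and 0 in replicate 2.

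**Figure D2:**
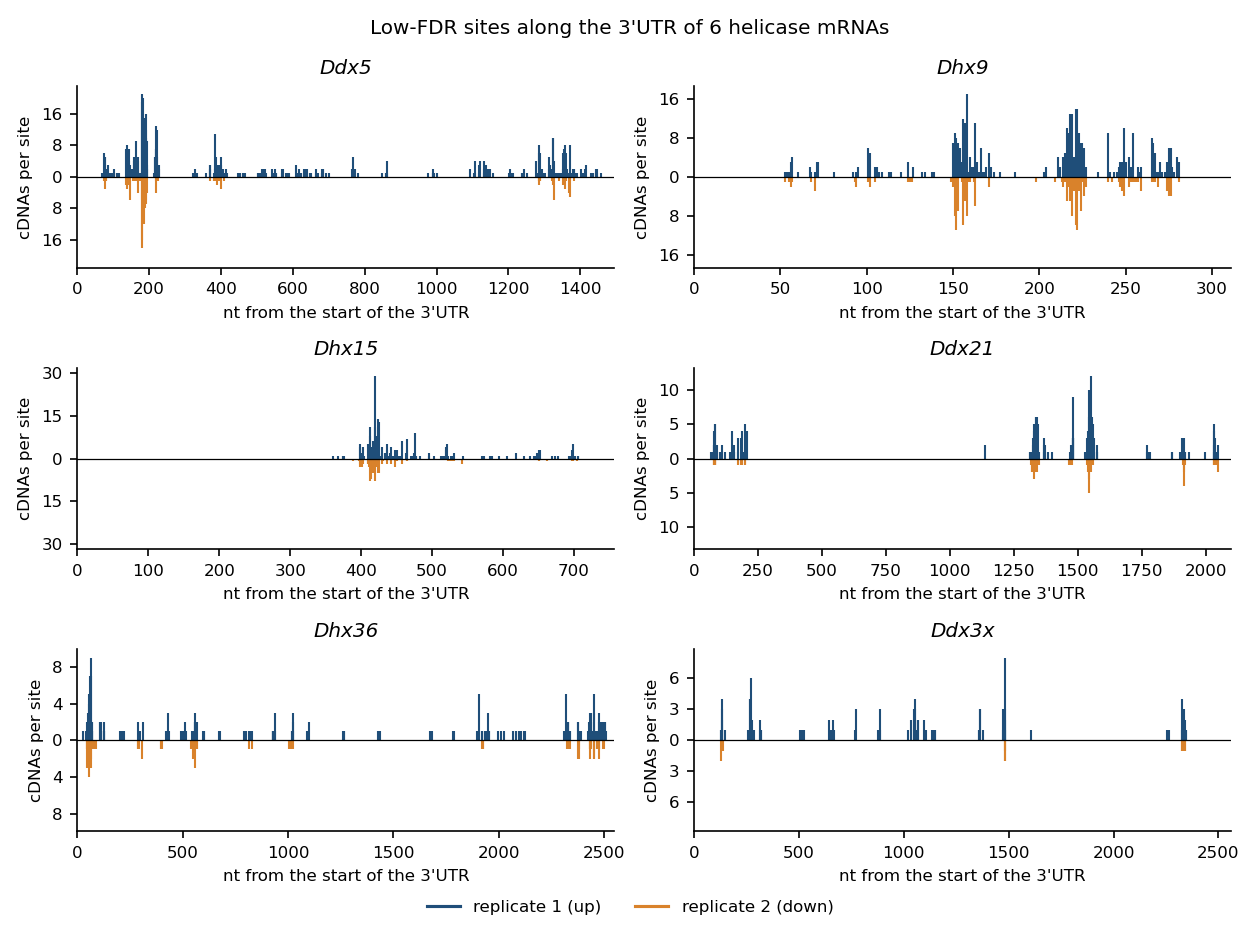
Low-FDR cDNAs at each nucleotide of the 3′UTR of 6 helicase mRNAs, with replicate 1 upward in blue and replicate 2 downward in orange, against the distance in nt from the start of the 3′UTR. Each panel has its own vertical scale, the same for both replicates. The tall peaks of Ddx5, Dhx9 and Dhx15 stand in the same stretches in both replicates, and the sites of Ddx3x are scattered, with few in replicate 2.

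In the splicing class 10 of 11 members had a 3′UTR site in both replicates, beside 22% of all genes, and Dhx38, which acts at the second step of splicing, had 0 cDNAs. Their median density was 76.6 cDNAs per kb over the 10 with any, 3.38 times that of all genes. The ratio was 1.85 in replicate 2 alone and 1.65 at sites of at least 5 cDNAs. At least 10 cDNAs in each replicate were reached by 5 of the 10, beside 34.3% of all genes with any.

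Dhx15, which releases the lariat intron and takes the spliceosome apart, led the class with 401 cDNAs, 292 in replicate 1 and 102 in replicate 2. Its cluster at chr5:52150283-52150600 (minus strand) held 279 (95.5%) and 99 (97.1%) of these, 360 to 677 nt into a 3′UTR of 757 nt. Ddx42, a component of the U2 particle, had 70 in replicate 1 and 17 in replicate 2, over several clusters. Ddx41, mutated in some human leukaemias and linked to both splicing and DNA sensing, had 53 and 24. Its 3′UTR is 185 nt long, and chr13:55530449-55530473 (minus strand), 25 nt, held 49 of the 53 and 24 of the 24. At 416 cDNAs per kb Ddx41 was above 96.3% of genes in density but above 72.7% by count.

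The related Ddx39 and Ddx39b (URH49 and UAP56) act in splicing and in mRNA export. Ddx39 held 59 cDNAs, 45 in replicate 1 and 13 in replicate 2, all in chr8:83723178-83723260 (plus strand). Ddx39b held 46, with 39 in replicate 1 and 6 in replicate 2, at chr17:35253575-35253599 (21 and 6) and chr17:35253618-35253660 (18 and 0). By length the pair stood apart, with 211 cDNAs per kb in Ddx39b and 22.5 in Ddx39, whose annotated 3′UTR of 2622 nt joins several isoforms. With the longest coding transcript alone Ddx39 kept 16 cDNAs. Ddx46, Dhx35, Ddx23, Dhx16 and Dhx8, which act at successive steps of spliceosome assembly and activity, ranged from 3 to 37 cDNAs in replicate 1 and from 2 to 12 in replicate 2.

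**Figure D3:**
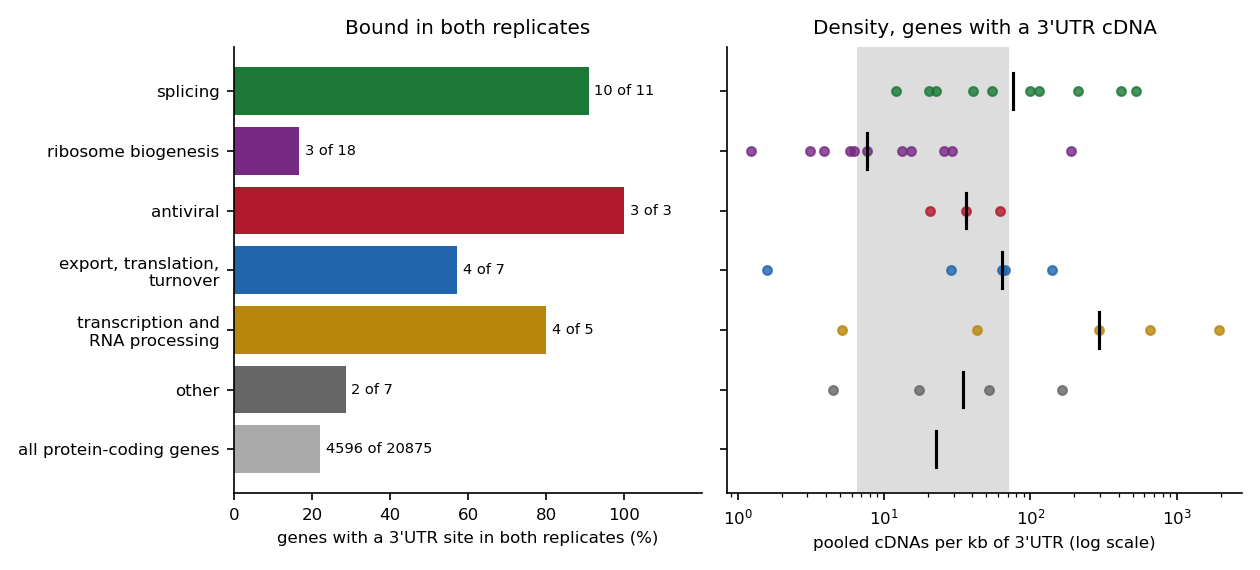
Left, the share of genes in each class with a 3′UTR site in both replicates, with the counts beside the bars. Right, pooled cDNAs per kb of 3′UTR on a logarithmic axis for the members with a 3′UTR cDNA (points), the median of each class (black lines) and the range from the lower to the upper quartile of all genes with a 3′UTR cDNA (grey band). Splicing helicases reach 10 of 11 and ribosome biogenesis helicases 3 of 18.

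Of the helicases of ribosome biogenesis, 3 of 18 were bound in both replicates (16.7%), which is close to the 22% of all genes. These were Ddx21, Ddx55 and Ddx24. Among the members with any pooled 3′UTR cDNA they were 3 of 11 (27.3%), beside 63.4% of all genes. Their median density was 7.69 cDNAs per kb over the 11 with any, 0.340 times that of all genes, or 0.674 times in replicate 2 alone. In replicate 1, taken by itself, 10 of 18 had a 3′UTR cDNA (55.6%), beside 32% of all genes. Of the 18, 7 had no 3′UTR cDNA at all, and 7 had between 3 and 12 cDNAs in replicate 1 and 0 in replicate 2. Replicate 2 was the smaller library, and the part of its depth in the 0 cDNAs of these 7 was not tested. In comparison, 44.4% of 18 other genes of ribosome biogenesis and 81.3% of 16 spliceosome partners were bound, led by Npm1 with 607 pooled cDNAs and Ncl with 577, and by Eftud2 with 313 and Sf3b1 with 303.

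Ddx21, a nucleolar helicase that couples RNA polymerase I transcription to ribosomal RNA processing, was the clear exception. It held 286 cDNAs in replicate 1 and 77 in replicate 2, and 396 of the 497 pooled 3′UTR cDNAs of its class. These were spread over 12 clusters, the largest being chr10:62580773-62580821 (77 and 19) and chr10:62581000-62581036 (65 and 26, minus strand). Replicate 1 had most in the former and replicate 2 in the latter. Its paralogue Ddx50 held 8 cDNAs in replicate 1 and 0 in replicate 2 in its 3′UTR, and a cluster in an intron at chr10:62642014-62642027 held 11 and 3. Ddx55, which acts on the large ribosomal subunit, held 17 and 5. Dhx33, which promotes ribosomal RNA synthesis, held 12 and 0.

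All 3 antiviral helicases were bound in both replicates, beside 22% of all genes and 63.4% of those with any 3′UTR cDNA, but on few cDNAs. Ddx58 (RIG-I), the sensor of RNA with a 5′ triphosphate, held 30 in replicate 1 and 1 in replicate 2. Dhx58 (LGP2), which modulates the RIG-I-like receptors, held 11 and 1. Ddx60, an interferon-induced factor of the same pathway, held 15 and 5. For Ddx58 and Dhx58 the second experiment thus contributed a single cDNA, and 0 of the 3 reached 10 in each replicate, beside 34.3% of all genes with any. Their pooled densities were 36.4 cDNAs per kb in Ddx58, 62.3 in Dhx58 and 20.7 in Ddx60, beside a median of 22.6 over all genes with any. The class median was 1.61 times that of all genes in the pool and 0.458 times in replicate 2 alone, so that its direction turned with the library. Of 11 other genes of this pathway 6 were bound (54.5%, beside 22% of all genes), including Ifih1 (MDA5, 24 and 3), Trim25 (287 and 51) and Zc3hav1 (219 and 45). Mavs, Irf3, Irf7 and Ikbke had 0 cDNAs in the 3′UTR.

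Some helicases of other classes also have roles in antiviral sensing. With Ddx1, Ddx3x, Ddx41, Dhx9 and Dhx36 counted in, 7 of 8 were bound (87.5%, beside 22% of all genes), all except Ddx1. The high counts of that wider set came from Dhx9, Dhx36 and Ddx3x, so that what the antiviral class showed depended on which genes were put in it.

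In the class of export, translation and mRNA turnover, Dhx36 and Ddx3x led. Dhx36, which unwinds G-quadruplexes, held 358 cDNAs, 252 in replicate 1 and 87 in replicate 2, with a leading cluster at chr3:62470472-62470535 (minus strand, 61 and 33) 27 to 90 nt after the stop codon and another, chr3:62468055-62468140 (47 and 18), near the end of its 3′UTR of 2549 nt. Ddx3x, a cofactor of translation initiation that is found in stress granules, held 140 in replicate 1 and 13 in replicate 2. No cluster of Ddx3x held more than 16.3% of its pooled cDNAs, and its leading cluster, chrX:13292513-13292562 (plus strand), had 25 and 0.

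The export factors Ddx19a and Ddx19b, near-identical neighbours on chromosome 8 that act at the nuclear pore, differed in count. Ddx19a held 53 cDNAs in replicate 1 and 7 in replicate 2, 52 of its 66 pooled cDNAs in chr8:110975023-110975084 (minus strand) near the end of the 3′UTR. Ddx19b held 0 and 1, and 8 pooled 3′UTR cDNAs. Dhx29, a factor of translation initiation on structured mRNAs, held 5 and 2. The sources used here do not say how reads that match several places were counted, so the split of reads between near-identical copies, as in Ddx19a and Ddx19b, Ddx39 and Ddx39b, and Ddx3x with its Y-linked copy, is uncertain. In the less studied class, Dhx57 held 61 and 14, with 58 and 12 in the single stretch chr17:80238377-80238478 (minus strand). Dhx40 held 11 and 3 and Dhx32 12 and 0.

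No pooled 3′UTR cDNA was found for 13 members. Ddx18, Ddx25, Ddx28, Ddx4, Ddx43, Ddx49, Ddx51, Ddx59, Dhx34, Dhx37 and Dhx38 had 0 cDNAs in any feature. Ddx4, Ddx25 and Ddx43 are known from germ cells. Ddx56 had 5 cDNAs and Dhx30 had 10, all in the coding sequence. The median 3′UTR of these 13 was 262 nt long, against 945 nt for the 26 bound in both replicates. It was 1318 nt for the 12 with a 3′UTR cDNA that were not bound in both, and 1000 nt over all genes.

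Most cDNAs of the helicases lay in the 3′UTR, as in other genes. Of their 5995 pooled cDNAs 87.4% were in the 3′UTR, 6.81% in the coding sequence, 3.40% in introns, 2.22% in exons of non-coding isoforms and 0.150% in the 5′UTR. Over all genes these shares were 85.7%, 6.85%, 3.96%, 1.99% and 1.49%. The lower 5′UTR share of the members rests on 9 pooled cDNAs, with 8 in replicate 1 and 0 in replicate 2. They came from Ddx17 (3), Ddx39 (2) and Ddx60 (4). The exact 95% interval, 0.0687% to 0.285%, covers counting error only and not the spread between genes, and cDNAs of a gene are not independent. By replicate the 3′UTR share of the members was 88.1% and 94.5%, or 91.3% ± 4.50 (SD, n = 2), beside 88.6% ± 3.03 for all genes. Among members with at least 20 pooled cDNAs, 3 had fewer cDNAs in the 3′UTR than outside it, all of the ribosome biogenesis class. The share of all genes for which this holds is not given here, so it is not read as a trait of the class. Ddx24 had 7 of 24 there (29.2%, exact 95% interval 12.6% to 51.1%), and its other 17 formed a cluster in the coding sequence at chr12:103417673-103417692 (minus strand) with 11 in replicate 1 and 6 in replicate 2. Ddx50 had 10 of 27 there and Ddx47 11 of 26, with intervals of 19.4% to 57.6% and 23.4% to 63.1% that reach above 50%.

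Sites of the helicases that lie outside the 3′UTR were at times nearly as well covered as those inside it. Ddx42 had an intron cluster at chr11:106230376-106230409 (plus strand) with 18 and 9 cDNAs, against 24 and 9 in its leading 3′UTR cluster. Ddx46 had a coding cluster at chr13:55659111-55659160 (plus strand) with 11 and 6, against 16 and 7. The coding sequence of Dhx30 held 6 and 4 at chr9:110084829-110084836 (minus strand). These clusters were present in both replicates, but others were not, such as coding clusters of Dhx15 (19 and 0) and Ddx5 (18 and 0). The coding share of the members was 6.88% in replicate 1 and 1.62% in replicate 2, beside 6.96% and 3.51% over all genes. The extracts were labelled as cytoplasm, and whether the intron sites come from retained introns, unannotated exons or nuclear RNA was not tested.

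The counts of both replicates followed each other across the helicases. Over the 37 members with a 3′UTR cDNA in either replicate, Pearson's r of log2(count + 1) was 0.894 and Spearman's rho 0.836, beside 0.848 and 0.852 over 6837 genes. These describe agreement across genes of the same 2 libraries, and genes are not replicates. Of the 518 3′UTR sites of the members in replicate 2, 385 (74.3%) were at the same nucleotide as a site of replicate 1, beside 64.6% for all genes. Without Ddx17, Ddx5 and Dhx9 it was 180 of 276 (65.2%). The share was 84.5% in the class of Ddx17, Ddx5 and Dhx9 and 33.3% in the antiviral class, where it rests on 6 sites.

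The share of 3′UTR cDNAs that came from replicate 2 was compared with the 21.01% over all genes by a two-sided exact binomial test, with Benjamini-Hochberg adjustment over the 2514 genes with at least 50 cDNAs. This compares 2 libraries and not conditions, and since cDNAs of a cluster are not independent the p-values are too small. Of 12 members tested, Dhx9 was above, at 31.5% (exact 95% interval 27.8% to 35.4%, adjusted p = 9.98e-08). Ddx3x was below in the same exact test, at 8.50% (4.60% to 14.1%, adjusted p = 0.000593). Over all genes 9.27% were called above and 12.2% below, so 1 of 12 each way (8.33%) is close to the background. The interval was 19.2% to 23.5% for Ddx17 and 17.9% to 23.2% for Ddx5, and neither was called. For Ddx3x the count of cDNAs also moved with the site filter, since 172 of the 273 cDNAs in the span of its 3′UTR sites were at low-FDR sites (63.0%), against a median of 97.5% over the members. With replicate counts read at every site called in either replicate, Ddx3x had 140 and 21 cDNAs, a share of 13.0% (exact binomial test, adjusted p = 0.0327). With sites of under 5 cDNAs left out, Dhx9 stood at 33.7% against 28.1% over all genes (exact binomial test, adjusted p = 0.0627), and Ddx3x had too few cDNAs to be tested.

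**Figure D4:**
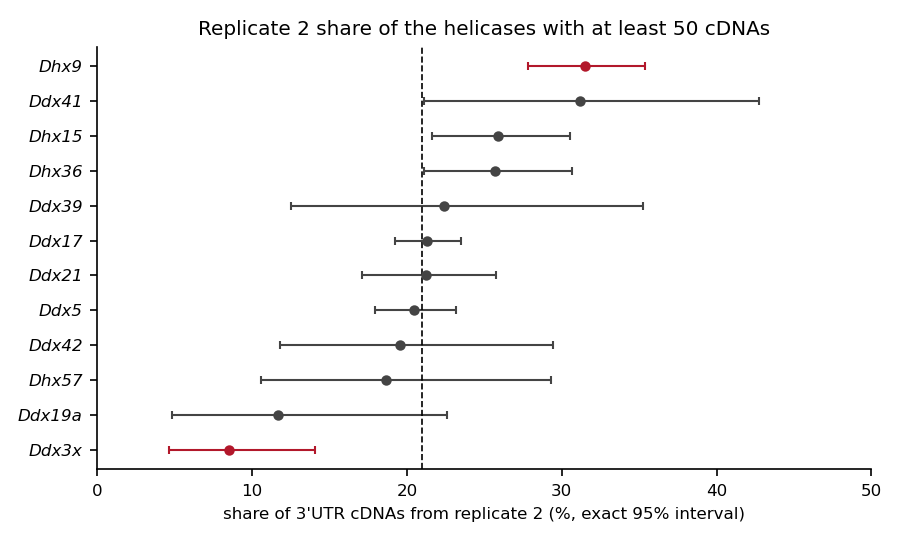
Share of 3′UTR cDNAs from replicate 2 for the 12 helicases tested, with exact 95% intervals for counting error. The dashed line is the share over all genes, 21.01%, and red marks the 2 members called, Dhx9 above the line and Ddx3x below it.

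The place of most cDNAs was compared between the experiments. Sites were joined into clusters at gaps of up to 15 nt, and among the 12 members with at least 10 cDNAs in each replicate the leading cluster was the same in 9 (75%), beside 83.4% of 2487 genes. The 9 were Ddx17, Ddx5, Dhx9, Dhx15, Dhx36, Ddx42, Dhx57, Ddx41 and Ddx39, and in Dhx9 and Ddx39 there was only 1 cluster to choose. The leading cluster did not always hold most of the cDNAs, with 24.2% and 37.9% of those of replicates 1 and 2 in Dhx36. The other 3 were Ddx21, Ddx3x and Dhx35, in each of which the largest clusters were close in pooled size. These held 97 and 91 cDNAs in Ddx21, 28 and 27 in Ddx3x, and 18 and 18 in Dhx35. In Dhx35 the clusters chr2:158858060-158858088 and chr2:158858141-158858157 (plus strand) held 14 and 13 cDNAs in replicate 1 and 3 and 5 in replicate 2.

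The sequence around the sites was richer in U than the 3′UTR it lay in. The mean share of U in the 29 nt around 3′UTR sites was above that of the whole 3′UTR in 37 of 38 members, beside 97.2% of all genes, with a median difference of 15.1 percentage points against 14.02 over all genes. Ddx1, with 9 sites, was the exception, with 27.2% at its sites against 30.02% over its 3′UTR. The difference was widest in Ddx23, at 63.2% against 29.1%. It was small in Dhx15 (4.23 points), Ddx5 (4.95), Dhx9 (7.01) and Ddx3x (3.70), whose 3′UTRs are between 33.6% and 39.1% U, and also in Ddx24 (4.88) and Ddx47 (4.21), at 29.6% and 30.3% U. The difference was small as well in Ddx50 (2.69 points, 41.1% U in its 3′UTR), Dhx40 (4.87, 35.0%) and Ddx58 (6.98, 31.4%). In Dhx36, whose 3′UTR is 36.2% U, it was 12.5 points. UV light crosslinks uridine more readily than other bases, and the part of this in the U content was not tested.

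**Figure D5:**
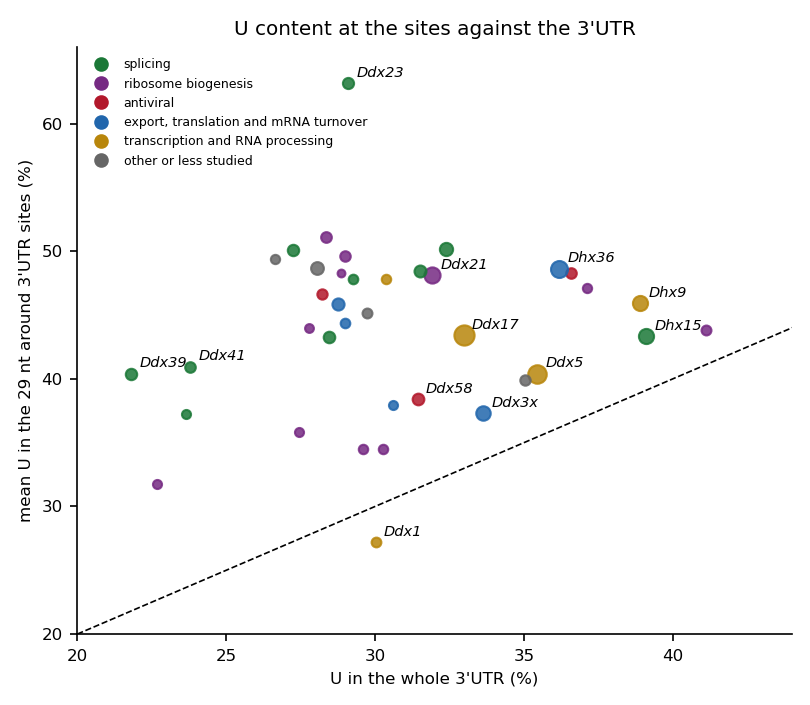
Mean share of U in the 29 nt around the 3′UTR sites of each helicase against the share of U in its whole 3′UTR, for the 38 members with a 3′UTR cDNA, coloured by class and sized by the number of sites. The dashed line marks equal shares. Ddx1 lies below the line, and the other 37 members lie above it.

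The letters searched for were UUUUU and AUUUA, on the strand of the transcript only, and the 2 can overlap in a longer stretch. UUUUU lay in the 29 nt around 36.5% of the 1916 member sites, beside 8.41% of all positions of the same 3′UTRs, and over all genes the shares were 37.7% and 8.02%. AUUUA lay around 10.3% of member sites and 4.16% of positions, beside 10.8% and 4.65%. Members differed in this. UUUUU lay around 75% of the sites of Ddx41, 74.1% of those of Ddx42 and 53.2% of those of Ddx21, but around 14.1% of those of Ddx3x. AUUUA lay around 23.7% of the sites of Ddx5, against 3.17% for Ddx17, and around 15.2% and 3.28% of all positions of their 3′UTRs. The run UUUUU that stands in the printed Ddx17 and Dhx36 windows was thus about as frequent around helicase sites as over all genes, and most sites of both lacked it.

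As a check of the cells, 7 of 8 markers of B cells (87.5%) were bound in both replicates, beside 22% of all genes. Among them were Pax5 with 1856 pooled 3′UTR cDNAs and Ms4a1 with 999. Cd79a, with 8 and 0, was the exception. Of 5 markers each, 0 of T cells, 2 of myeloid cells (Lyz2 and Itgam, 18 and 24 cDNAs) and 1 of erythroid cells (Hbb-bt, 28) were bound. The myeloid share, 40%, was thus above that of all genes, and the erythroid share, 20%, close to it. The part of such cells in the helicase counts was not tested. Of 18 RNA helicases with other names, 13 were bound in both replicates (72.2%, beside 22% of all genes). Among the 17 of them with any 3′UTR cDNA this was 76.5%, beside 63.4% of all genes with any. The bound included Eif4a1, of the cap-binding complex, with 171 and 140 cDNAs, Helz2 with 235 and 73 and Aqr with 173 and 84.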

How the data were processed

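The authors deposited, for each crosslinked nucleotide, a count of unique cDNAs, signed by strand and not scaled to depth. Per the file headers and the study's methods, the authors removed PCR duplicates by random barcode bases, mapped reads with Bowtie to mm9 (version not given in the sources used here), kept sites at an FDR under 0.05 from 100 permutations over 15 nt on either side, called on each replicate and on the sum, and lifted the pooled list to mm10 (GRCm38). The labels and the methods differ in the UV dose and RNase concentration.

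Absolute pooled counts were summed by GENCODE M21 feature on the gene's strand, in the order CDS, 3′UTR, 5′UTR, exon of a non-coding isoform and intron, leaving out sites in exons of other genes. Replicate counts were taken through the mm9 pooled list, whose 422150 rows pair with the lifted list, and covered 98.9% and 99.1% of the cDNAs of replicates 1 and 2. The replicate share was tested with a two-sided exact binomial test with Benjamini-Hochberg adjustment, and intervals are exact (Clopper-Pearson, 95%) and cover counting error only. The steps were tested on simulated data. Python 3.11.15, numpy 2.4.6, scipy 1.17.1, pysam 0.24.0 and matplotlib 3.10.9 were used.

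Genes named were those with at least 50 pooled 3′UTR cDNAs, the first 3 of each class, all antiviral members, those called in the share test, those with at least 20 cDNAs and fewer in the 3′UTR than outside it, 4 paralogue pairs and those with 0 cDNAs. Others, such as Ddx46, Dhx35, Ddx23, Ddx1, Ddx20 and Dhx30, were named after their values were seen. Members and lists were chosen with earlier results of these data known.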

Additional observations from a re-analysis of the deposited data

How the results depend on the processing

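No paired analysis was possible because there is only 1 group of samples. The count bound in both replicates is limited by replicate 2, where 27 members had a 3′UTR cDNA, against 36 in replicate 1. The number of members bound in both replicates was 13 with sites of at least 5 pooled cDNAs and 12 when each replicate had to hold 10 or more, and 27 to 36 with either replicate alone. For splicing helicases these were 5, 5 and 10 to 10, for ribosome biogenesis 1, 1 and 3 to 10, and for antiviral helicases 0, 0 and 3 to 3, with 7 of 8 in the wider antiviral class. At sites of at least 5 cDNAs 0 members were called above and 0 below in the replicate 2 share, beside 4.81% and 5.35% of 935 genes. At this setting 7 of the 12 members were still tested, and Ddx3x, then under the minimum of 50 cDNAs, was not among them. The leading cluster was the same in 16 of 20 members with at least 5 cDNAs in each replicate, an alternative chosen after seeing the data. The share over all genes at this minimum is not given here. The 3′UTR share was 92.5% and 99.0% at sites of at least 2 and 5 cDNAs, 81.7% with the longest coding transcript and 88.1% to 94.5% with either replicate alone. The density ratio to all genes was 1.83 and 1.94 at sites of at least 2 and 5, 1.38 with the longest transcript and 1.30 to 1.38 with either replicate. For splicing helicases it was 1.65 at sites of at least 5, 2.41 with the wider antiviral class, which takes Ddx41 out, and 1.85 to 2.83 with either replicate. For ribosome biogenesis it was 3.95 at sites of at least 5, where only Ddx21 was left, and 0.373 to 0.674. For antiviral helicases it was 0.709 at sites of at least 2, 2.86 in the wider class, and 0.458 to 1.63, with none left at sites of at least 5. The U difference was 20.1 points at sites of at least 5, 11.8 with windows of 41 nt and 14.8 to 18.02 with either replicate. Giving the 3′UTR precedence over the CDS, keeping sites in exons of other genes and extending the 3′UTR by 1 kb left the pooled 3′UTR counts of all 38 members within counting error. The longest transcript moved 2 of 38, Ddx17 and Ddx39. Taking only sites of at least 2 cDNAs moved 23 of 38 beyond counting error, and sites of at least 5 moved 35 of 38. The cause of these changes was not tested.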
